A study of Mus musculus with 10 samples.

Results

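The proteasome subunit genes were followed through the list of accessible chromatin sites of a fibroblast line. They were chosen by name, as protein-coding mouse genes whose symbol begins with Psm, a letter from a to g and a number. This pattern matched 50 of 21938 coding genes. It took in 48 genes of the proteasome and its helpers and 2 genes that are not known as subunits. These were Psmc3ip, which encodes a protein of meiotic recombination, and Psme2b, an intronless copy of the activator gene Psme2. The pattern itself uses no measure of accessibility.

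ATAC-seq was performed on immortalized mouse embryo fibroblasts, in which the transposase Tn5 cuts open chromatin and regions rich in cut fragments are read as accessible sites. The cells of the clone NG3 had lost exon 4 of both endogenous Ash2l alleles through a tamoxifen-inducible Cre and lived on a lentiviral fusion of FKBP, HA tags and human ASH2L. ASH2L belongs to the enzyme complexes that place methyl groups on lysine 4 of histone H3, and dTAG-13 is a PROTAC that brings the fusion to the ligase subunit Cereblon for degradation. The 10 libraries formed 5 groups of 2, which were cells without dTAG-13 and cells treated with it for 30 min, 4 h, 8 h and 24 h. All 5 groups carried the same deletion and the same fusion and came from 1 clone. The list analysed here pools these libraries into 153924 sites and gives a position for each, with no value per library. Effects of dTAG-13 on the proteasome genes were therefore not analysed here, no replicate error belongs to any value, and how deeply each library was sequenced is unknown. A gene without a listed site cannot be called closed, because neither that depth nor the threshold of the peak calls is known.

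The proteasome degrades proteins that carry ubiquitin chains. Its core particle is a barrel of stacked rings, with alpha subunits on the outside gating the entrance and beta subunits inside that hold the caspase-like, trypsin-like and chymotrypsin-like active sites. The regulatory particle caps the core, binds ubiquitin chains, removes them and feeds the unfolded protein inward with a ring of ATPases. Cells of the immune system and cells treated with interferon gamma replace the catalytic beta subunits by Psmb8, Psmb9 and Psmb10, cortical thymic epithelium uses Psmb11, and male germ cells use the alpha subunit Psma8.

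The sequences just upstream of 7 starts are shown because the results below turn on them. They were taken from RefSeq (GRCm38.p6) and run 5′ to 3′ on the strand of the gene. Each ends before the start, and bases in an annotated exon of a coding gene were left out. Capitals mark matches to the motifs described further on. Psmb5 and Psmb6 encode standard catalytic subunits and match the antioxidant response element TGACNNNGC at or near their 3′ ends. Psmc6, Psmd2 and Psmd11 encode subunits of the regulatory particle and match the ETS core CCGGAAG or its complement CTTCCGG. The capital run of Psmc6 joins an ETS core to the SP and KLF core GGGCGG. Psmb10 is the immune subunit gene whose site reached least far upstream, and no motif was matched in its stretch. Psmd10 is the gene of an assembly chaperone that had no listed site.
Psmb5 (chr14:54618023-54618245, minus strand): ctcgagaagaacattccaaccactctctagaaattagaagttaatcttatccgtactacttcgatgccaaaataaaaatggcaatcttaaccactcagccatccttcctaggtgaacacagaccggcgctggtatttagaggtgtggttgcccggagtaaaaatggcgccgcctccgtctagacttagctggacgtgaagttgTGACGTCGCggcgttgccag
Psmb6 (chr11:70525107-70525356, plus strand): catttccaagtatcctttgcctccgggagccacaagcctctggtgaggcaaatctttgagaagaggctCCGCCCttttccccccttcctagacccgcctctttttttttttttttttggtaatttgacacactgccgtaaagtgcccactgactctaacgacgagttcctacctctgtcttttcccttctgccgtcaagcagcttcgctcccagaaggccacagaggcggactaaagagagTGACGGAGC
Psmc6 (chr14:45329574-45329787, plus strand): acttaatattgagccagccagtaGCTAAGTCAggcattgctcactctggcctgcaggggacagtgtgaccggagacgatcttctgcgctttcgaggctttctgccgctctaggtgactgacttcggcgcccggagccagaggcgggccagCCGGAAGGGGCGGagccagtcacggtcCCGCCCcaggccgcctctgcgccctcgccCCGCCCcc
Psmd2 (chr16:20651402-20651651, plus strand): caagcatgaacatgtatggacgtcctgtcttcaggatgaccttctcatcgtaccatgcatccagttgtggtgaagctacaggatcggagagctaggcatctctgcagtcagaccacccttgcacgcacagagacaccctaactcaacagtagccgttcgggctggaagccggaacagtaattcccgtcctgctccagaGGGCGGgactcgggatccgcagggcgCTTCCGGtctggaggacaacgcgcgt
Psmd11 (chr11:80428365-80428614, plus strand): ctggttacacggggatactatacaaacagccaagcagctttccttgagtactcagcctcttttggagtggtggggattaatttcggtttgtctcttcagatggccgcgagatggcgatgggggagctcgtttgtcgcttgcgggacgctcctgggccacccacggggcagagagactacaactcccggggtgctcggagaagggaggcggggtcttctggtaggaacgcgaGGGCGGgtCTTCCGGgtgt
Psmb10 (chr8:105938445-105938642, minus strand): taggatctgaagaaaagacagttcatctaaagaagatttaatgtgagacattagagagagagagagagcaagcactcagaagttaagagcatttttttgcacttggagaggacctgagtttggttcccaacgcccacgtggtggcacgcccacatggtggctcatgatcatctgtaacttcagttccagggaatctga
Psmd10 (chrX:140956729-140956906, minus strand): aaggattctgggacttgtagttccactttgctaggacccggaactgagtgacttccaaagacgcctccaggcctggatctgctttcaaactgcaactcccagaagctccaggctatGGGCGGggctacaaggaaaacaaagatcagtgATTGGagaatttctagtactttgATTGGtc

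Of the 50 genes, 46 (92%, exact 95% binomial interval 80.8% to 97.8%) had a listed site within 1 kb of an annotated start. The share over all coding genes was 70.8%. Intervals of this kind cover the drawing of genes alone and no error of measurement. The main start, taken from the best supported transcript of each gene, lay inside a site in the same 46 genes, against 59.7% of all coding genes. A CpG island, a stretch rich in the dinucleotide CpG, lay within 1 kb of the main start in 48 of the 50 genes (96%), against 65.8% of all coding genes. Coding genes with such an island had a site in 91.5% of cases and those without in 31%. The share of the proteasome genes with an island that had a site, 46 of 48 (95.8%), therefore stood near that of all island genes, and both genes without an island, Psma8 and Psme2b, had no site.

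The general particle and its helpers had a site at nearly every gene, while the thymic and the germ cell subunit, 1 gene each, had none. Of the 43 genes of the standard particle, the chaperones, the activators and the inhibitor, 42 (97.7%, interval 87.7% to 99.9%) had a site near a start. All 31 genes of the standard core and regulatory particle were among them. Each of the 43 had a CpG island, and 91.5% of coding genes with an island had a site. The immune subunits Psmb8, Psmb9 and Psmb10, all 3 with a CpG island, each had a site. The genes without a site were Psmb11, Psma8, Psmd10 and Psme2b.

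The alpha ring genes Psma1 to Psma7 form the outer rings and the gate of the core. All 7 had their main start inside a site, and the sites were 1160 to 1870 bp wide with a median of 1301 bp. The narrowest was that of Psma5 and the widest that of Psma7, which reached 1088 bp upstream and 781 bp downstream of the start. Psma6 had another site of 939 bp at an alternative start 14.6 kb upstream.

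The standard beta ring genes Psmb1 to Psmb7 had narrower sites, of 880 to 1508 bp with a median of 1093 bp. Psmb1 and Psmb4, which encode structural beta subunits, had the narrowest of them with 880 and 932 bp. A further site of 864 bp lay at an alternative start of Psmb1, centred 1.57 kb upstream of the main start, and held the start of Tbp, the gene of the TATA-binding protein. The catalytic subunits had sites of 1292 bp at Psmb5, 1192 bp at Psmb6 and 1089 bp at Psmb7.

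Each immune subunit replaces a standard subunit at the same place in the ring, so the sites were set side by side by place. Psmb8, the chymotrypsin-like immune subunit, had the narrowest site of all 46, with 736 bp (chr17:34197360-34198095), 556 bp narrower than that of Psmb5. Among sites of coding genes with a CpG island this width lay at percentile 6.41. Psmb9, the immune subunit that takes the place of Psmb6, had a site of 1488 bp (chr17:34186820-34188307), which was 296 bp wider than that of Psmb6. Psmb10, the trypsin-like immune subunit, had a site of 1857 bp (chr8:105936650-105938506), which was 768 bp wider than that of Psmb7. The site of Psmb8 was thus narrower and those of Psmb9 and Psmb10 wider than that of the standard paralog.

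The site of Psmb10 lay mostly downstream of the start. It reached only 62 bp upstream of the main start and 1794 bp downstream, and covered 66.2% of the gene span of 2710 bp with all 7 annotated starts. Among the 46 genes the reach upstream ranged from this 62 bp to 1309 bp at Psme2. Within 250 bp either side of the main start of Psmb10 the GC content was 46.7% and the ratio of observed to expected CpG was 0.183, against 50.7% and 0.808 at Psmb7. For Psmb8 and Psmb5 these ratios were 0.637 and 0.915, and for Psmb9 and Psmb6 they were 0.68 and 0.642. Psmb10 still had a CpG island within 1 kb of its main start, by the main and the stricter criteria.

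Psmb8 and Psmb9 lie in the major histocompatibility region with Tap1 and Tap2, whose products carry peptides into the endoplasmic reticulum. The site of Psmb9 also held the start of Tap1. The 2 main starts were 211 bp apart on opposite strands and overlapped in GENCODE, while in RefSeq the starts were 226 bp apart without overlap. The RefSeq start of Psmb9 lay 434 bp downstream of the GENCODE main start and still inside the site. At Psmb8 the RefSeq start lay 405 bp downstream of the GENCODE main start and outside the site, so that whether this start is covered depends on the annotation. Tap2 had a site of 737 bp that began 663 bp from its main start.

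Psmb11 lies next to Psmb5, the standard subunit whose place its product takes in thymic epithelium. The main starts of the neighbours were 7.29 kb apart. The start of Psmb5 was inside its 1292 bp site, and a further site of 566 bp lay 1.04 kb from it, on the side of Psmb11. This was the site nearest to Psmb11, at 5688 bp from its main start and 1811 bp from its other annotated start. No site fell in the 8.12 kb of the Psmb11 gene. Its main start had a CpG island by the main criteria and none by the stricter ones, with an observed to expected CpG ratio of 0.305. Of 2 marker genes of thymic epithelium, Foxn1 had no listed site near a start, and Aire had 3, of which one of 876 bp covered its main start.

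Psma8, the germ cell counterpart of Psma7, had no CpG island, no site within 22.6 kb of its main start and none in its 56.2 kb. It lay alone in a stretch of 79.1 kb without sites, and 104 of the 5258 such stretches between sites on its chromosome were as long or longer. The standard Psma7 had a site of 1870 bp, with a GC content of 73.3% around the start against 55.3% at Psma8. Of 3 germ cell marker genes, Dazl had a listed site near a start and Ddx4 and Sycp3 had none.

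**Figure D1:**
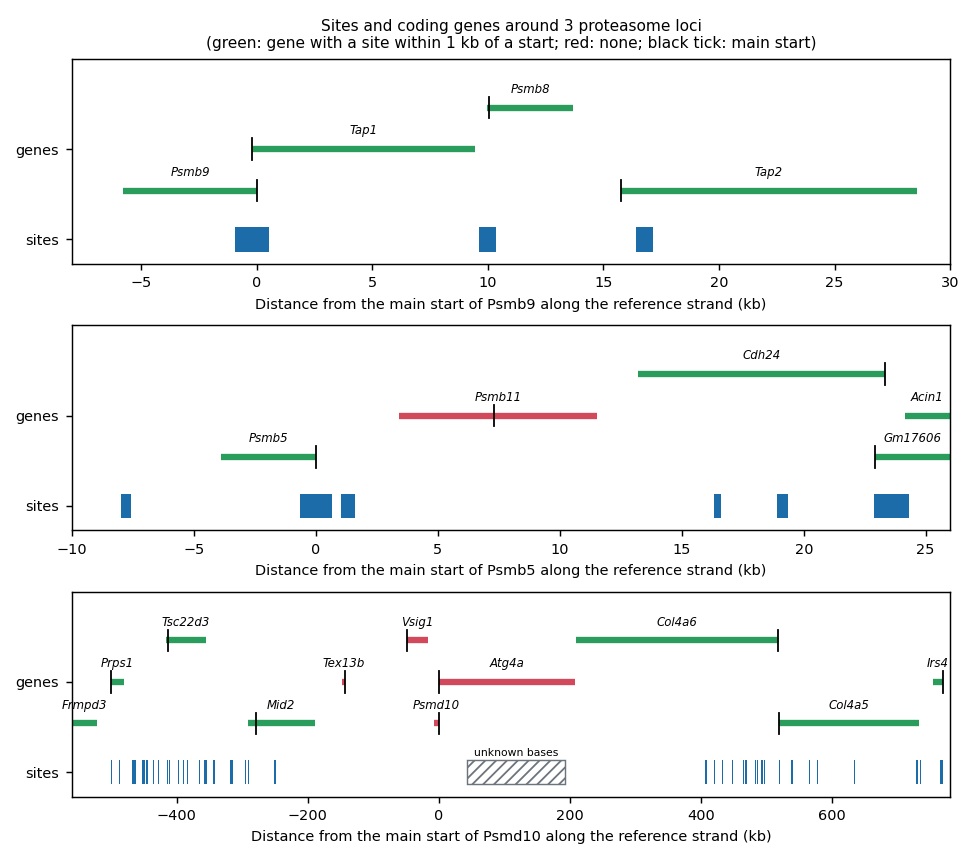
Sites (blue) and coding genes (green with, red without a site within 1 kb of a start) by distance in kb from the main starts of Psmb9, Psmb5 and Psmd10, which are at 0. The site of Psmb9 is shared with Tap1, Psmb11 lies between sites, and Psmd10 lies in a stretch of 656 kb without sites, of which the hatched 150 kb hold unknown bases.

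The ATPase ring genes Psmc1 to Psmc6, which encode the unfolding motor, all had their main start inside a site. The widths were 972 to 1493 bp with a median of 1167 bp. Psmc5 had the widest and Psmc3 the narrowest, and Psmc3 had a further site of 258 bp 0.987 kb upstream. The 11 non-ATPase genes of the regulatory particle, among them the ubiquitin receptor Psmd4 and the deubiquitinase Psmd14, also each had a site over the start. These were 987 bp at Psmd8 to 1600 bp at Psmd11, with a median of 1229 bp. Further sites lay near the starts of Psmd1, Psmd8 and Psmd14. The one of Psmd1 was 46.2 kb inside the gene, at an alternative start, and held a start of Htr2b, a serotonin receptor gene.

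The assembly chaperones had the widest sites by median, with 1523 bp over 6 genes and a range of 1129 to 2036 bp. Psmd5, a chaperone of the ATPase ring, had the widest site of all 46 genes (2036 bp, chr2:34869474-34871509). Psmd9, also a chaperone of that ring, had 3 sites near its annotated starts, with widths of 1086, 1290 and 711 bp, and the first of these lay 57.7 kb upstream of the main start. Psmg1 to Psmg4 encode the chaperones of the alpha ring, and their sites were 1129 to 1706 bp wide.

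Psmd10, which encodes gankyrin, a chaperone of the ATPase ring, had no site within 249.9 kb of its main start. It was the sole gene of the 50 on chromosome X and the sole gene of the standard set without a site. The stretch without sites around it ran from 140706775 to 141363204 on chromosome X, or 656 kb, and 150 kb of it are unknown bases in the assembly, beginning 42.8 kb from the main start of Psmd10. The known bases therefore came to 506 kb. Of the 3579 stretches between sites on chromosome X, 25 were as long or longer, counting this one, and their median over the chromosome was 13.3 kb.

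The stretch held the main starts of 4 coding genes, namely Psmd10, Atg4a, Vsig1 and Tex13b, of which 3 had a CpG island and 0 had one by the stricter criteria. Atg4a, a gene of autophagy, starts 218 bp from Psmd10 on the other strand, and neither start lay in a site. Genes on both sides, such as Mid2, Tsc22d3 and Prps1 to the left and Col4a6 and Col4a5 to the right, had sites. Coding genes with an island on chromosome X had a site in 73.8% of cases, so 141 of 539 had none, and 2 X stretches as long or longer, counting this one, held 3 or more starts with an island. On the autosomes, 46 of 49 genes (93.9%) had a site.

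The activators open the gate of the core without the regulatory particle. Psme1 and Psme2, which encode the subunits of the interferon-inducible activator, had sites of 1303 and 1870 bp, Psme3 of the nuclear activator had 1296 bp and Psme4 had 1405 bp with a further site of 332 bp. Psmf1, the gene of an inhibitor, had a site of 1414 bp. Of the genes that share the symbol pattern alone, Psmc3ip had a site of 1417 bp over its start, and Psme2b had none within 26.8 kb.

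The 46 start sites had a median width of 1294 bp (95% interval of the median 1193 to 1405 bp, quartiles 1137 and 1447 bp). The median over the 13387 distinct sites at coding starts was 1383 bp, and over the 11780 at starts with a CpG island it was 1431 bp. Of the 46 sites, 41 (89.1%) were at least 1000 bp wide, against 85.4% of sites at island starts, and 1 (2.17%) reached 2000 bp, against 14.4%. The median of the island starts thus lay above the interval of the proteasome genes, and 33 of the 46 sites were below percentile 50 of the island starts, while 4 were above percentile 75. A median of 540 bp of the site lay upstream and 673 bp downstream of the main start, and 31 of 46 sites (67.4%) reached further downstream, against 67.8% over all coding genes.

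**Figure D2:**
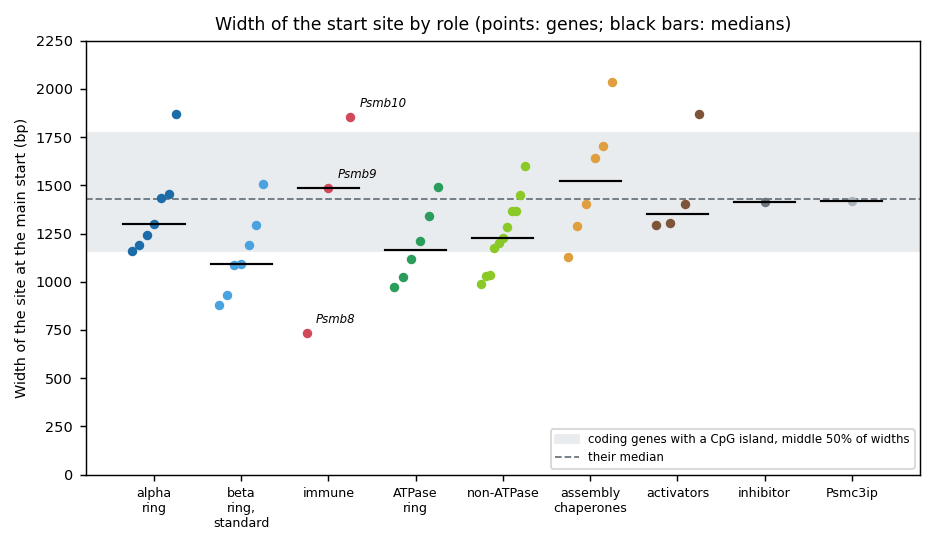
Width in bp of the site at the main start, with a point for each gene by role and a black bar for the median of the role. The gray band holds the middle 50% of sites at coding starts with a CpG island and the dashed line their median of 1431 bp, with Psmb8 (736 bp) below and Psmb10 (1857 bp) above the band.

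Of the 46 genes with a site, 10 (21.7%, interval 10.9% to 36.4%) shared it with the start of another coding gene, against 17.3% over all coding genes with a site at the main start. In 9 of these 10 the genes lay head to head on opposite strands. The starts were 32 bp apart for Psmc2 and Dnajc2, a ribosome-associated chaperone gene, 75 bp for Psma2 and Mrpl32, a gene of the mitochondrial ribosome, 75 bp for Psmc5 and Ftsj3, and 76 bp for Psma7 and Ss18l1. Wider pairs were Psmg2 with Cep76 at 263 bp and Psme2 with Rnf31, a subunit of a ubiquitin ligase, at 621 bp. In GENCODE, transcripts overlapped at their starts for Psma4 and AY074887 (208 bp), Psmb9 and Tap1 (211 bp) and Psmd13 and Sirt3 (341 bp). Sirt3 is a mitochondrial deacetylase gene. The RefSeq start of Psmd13 lay 426 bp downstream of its GENCODE main start, past the GENCODE start of Sirt3. Psmg3 shared its site with Gm26938 on the same strand, 478 bp downstream. Shared sites had a median width of 1414.5 bp and reached a median of 794.5 bp upstream, against 1291 and 508 bp for the 36 sites that were not shared.

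Most genes had a single site near their starts. The 46 genes held 55 sites in all, with 1 site at 38 genes, 2 at 7 and 3 at Psmd9. The share with 2 or more was 17.4% (8 of 46), against 30.6% of coding genes with a site.

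In the gene bodies, over 1 kb from every annotated start of the gene itself, sites were narrower than at the starts. They occurred in 19 of the 50 genes (38%), against 52.7% of all coding genes. The proteasome genes were also shorter, with a median span of 11.6 kb against 17.4 kb, and the shares were closer within classes of length. Below 10 kb, 13.6% of 22 proteasome genes had a body site against 15.9% of all, from 10 to 30 kb 44.4% of 18 against 54.2%, and from 30 to 120 kb 80% of 10 against 86.2%. The density was 4.38 body sites per 100 kb of proteasome genes and 6.06 over all coding genes. It was also lower within each class of length. The values were 2.46 against 3.96 below 10 kb, 3.82 against 5.30 from 10 to 30 kb and 5.02 against 6.56 from 30 to 120 kb.

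The 47 body sites had a median width of 532 bp (interval 352 to 687 bp, range 181 to 1412 bp), and 4 were at least 1000 bp wide. Of these sites, 28 lay in introns of the main transcript and 5 touched an exon. The other 14 lay outside the main transcript but inside the annotated span of the gene. Within 1 kb of the start of another coding gene lay 5 of the 47, at AW209491 in Psma2, Htr2b in Psmd1, Hpd in Psmd9 with 2 sites and Aoc2 at Psme3. The 7 genes with 3 or more were Psma2 with 6, Psmb7 and Psmd1 with 5, Psmd9 and Psme4 with 4, and Psmd11 and Psmd14 with 3. All 5 sites of Psmb7 lay in introns, in the 4th, 5th and 6th, and the widest of them was 902 bp. In contrast, 5 of the 6 sites of Psma2 lay beyond its main transcript, and the middles of those of Psme4 lay no further than 34.7% into its 109 kb. The immune subunits had no body site, but their genes span only 2.71 to 5.78 kb. Of all coding genes below 10 kb, 15.9% had one.

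**Figure D3:**
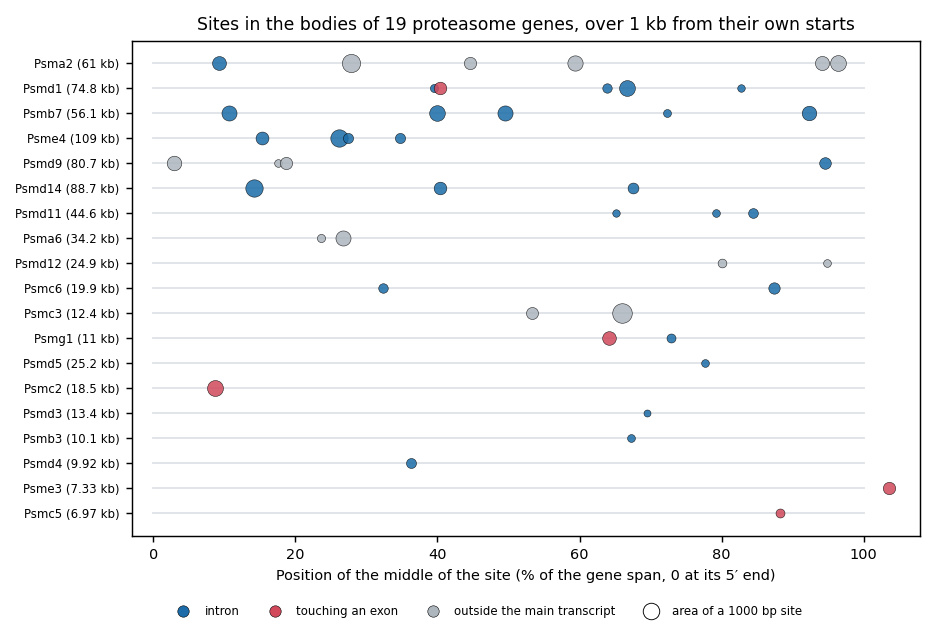
Sites over 1 kb from every start of their own gene in the 19 genes that had any, of which 5 of 47 lie within 1 kb of another coding gene's start, by the position of their middle in percent of the gene span, with the area of a circle scaled to the width in bp and the color to the place in the main transcript. Psma2 holds the most, with 6, and the site of Psme3 lies across the end of the gene.

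Motifs were searched on both strands in the RefSeq promoters, from 250 bases before to 50 after the start, of the 42 genes that had an entry there. Psma8, Psmb1, Psmb2, Psmb7, Psmc3, Psmd3, Psmd7 and Psmg2 were not among them. A match to such short letters is a description of the sequence and does not show that a factor binds. The ETS core CCGGAAG, the letters bound by the ETS family of factors, was matched in 15 of 42 promoters (35.7%, interval 21.6% to 52.0%), against 12.4% of all 16539 coding promoters and 17.3% of those with a CpG island. Of its 20 matches, 17 (85%) lay from 100 bases before the start onward, against 75.3% over all promoters.

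The matches to the ETS core were unevenly spread over the roles. Among subunits of the regulatory particle, 9 of 14 promoters held one, namely Psmc1, Psmc2, Psmc6, Psmd2, Psmd4, Psmd6, Psmd11, Psmd12 and Psmd13. Among standard core subunits it was 1 of 11, Psma6. The immune subunits had 0 of 3, where 17.3% of all island promoters held one. The other matches were at Psme3, Psme4, Psmg1, Psmg3 and Psmc3ip. For Psmd13 the window follows the RefSeq start, which lies 426 bp from the GENCODE main start. Over the whole site at the main start, read for all 46 genes, the ETS core was held by 25 of 46 (54.3%). The share was 31.1% of all 14602 coding genes with such a site and 34.0% of those with an island. Among the 3 immune subunit genes, Psmb10 held it. By particle, 13 of 17 genes of the regulatory particle and 4 of 14 of the standard core held it. This difference between the particles was noticed in the data and was not tested.

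The antioxidant response element TGACNNNGC, the letters bound by Nfe2l1 and Nfe2l2, was matched in 6 of 42 promoters (14.3%), close to the 13.3% of all promoters. These were Psmb5, Psmb6, Psmc6, Psmd9, Psmd12 and Psme4. In the printed stretches it stands at the 3′ end of Psmb6 and near that of Psmb5. Over whole sites it was matched in 31 of 46 genes (67.4%), against 43.9% of all coding sites and 45.7% of those with an island. Of the 43 matches in whole sites, 31 lay downstream of the main start and 28 more than 50 bp downstream, outside the promoter window.

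Matches to the letters of interferon-induced factors were counted in the same promoters. The repeat GAAANNGAA, part of the interferon-stimulated response element, was matched in 6 of 42 promoters (14.3%), namely Psmb3, Psmb4, Psmd4, Psmd9, Psme1 and Psmg4, with no immune subunit among them. The share was 8.33% over all promoters and 6.35% over those with a CpG island, both inside the interval of 5.43% to 28.5%. Over whole sites it was matched at 22 of 46 genes (47.8% against 29.5%, and 29.8% of sites with an island), with Psmb9 and Psmb10 among them and Psmb8 not. The gamma activated site TTCNNNGAA was matched in 3 promoters (7.14% against 7.78%), Psmb8, Psmd2 and Psmg1. Over whole sites it was matched at 16 of 46 genes (34.8% against 28.5%), with Psmb8 and Psmb10 among them and Psmb9 not. The promoter match of Psmb8 lay beyond the edge of its listed site, so its match in the whole site was another one. For Psmb8 and Psmb9 the window follows the RefSeq starts, which lie over 400 bp from the GENCODE ones.

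For the other motifs the share over all promoters lay inside the interval of the proteasome genes. The CCAAT box CCAAT was matched in 14 promoters (33.3% against 38.6%), the SP and KLF core GGGCGG in 23 (54.8% against 48.4%, and 66.6% of island promoters) and the TATA box TATAAA in 4 (9.52% against 12.9%). The NRF1 core GCATGCGC was matched in 3 (7.14% against 3.79%), at Psma2, Psmc5 and Psmg1, and the YY1 core AAGATGGCG in 2 (4.76% against 2.07%), at Psmb6 and Psmc5. Some matches overlapped, since the letters of 2 motifs can share bases.

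**Figure D4:**
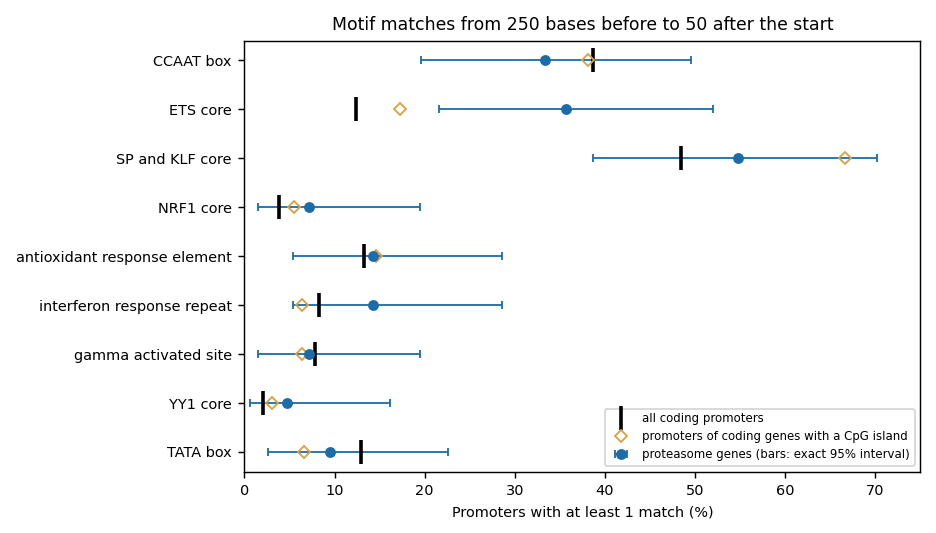
Share in percent of promoters with at least 1 match to each motif, for the 42 proteasome gene promoters (blue, with exact 95% binomial intervals), all 16539 coding promoters (black) and those with a CpG island (orange). The ETS core is the motif for which both backgrounds, 12.4% and 17.3%, lie below the interval of 21.6% to 52.0%.

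Genes that work with the proteasome were read from fixed lists. All of those found had a CpG island, and since 91.5% of coding genes with an island had a site, the counts below are near that background. All 18 partner genes that were found, including the ubiquitin receptor genes Adrm1 and Rad23b, the deubiquitinase genes Usp14 and Uchl5, the maturation factor Pomp and the import adapter Akirin2, had a site near a start. The sites at their main starts were up to 2878 bp wide, at Ubqln2. All 6 regulators of proteasome gene expression had a site as well. Among them were the transcription factor genes Nfe2l1 (1430 bp) and Nfe2l2 (2822 bp), and Ddi2 and Ngly1, whose products process the protein of Nfe2l1. All 8 genes of antigen processing and interferon response had a site, but the main start of Nlrc5, an activator of such genes, lay 9314 bp from the nearest one.

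Marker genes of cell types were set beside the 70.8% of all coding genes with a site near a start. All 10 fibroblast and mesenchymal marker genes, such as Col1a1, Col3a1 and Prrx1, had one. Of blood markers 1 of 4 had one, of epithelial 2 of 3, of thymic epithelial 1 of 2 and of germ cell markers 1 of 3. The 4 blood markers had no CpG island, and 31% of coding genes without an island had a site. Both endothelial markers had a site near some start, yet the main starts of Pecam1 and Cdh5 lay 1164 and 2057 bp from the nearest. A listed site does not measure expression, and these short lists do not single out a cell type.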

How the data were processed

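Per the labels and the study's methods, the authors' ATAC-seq reads passed through Trim Galore and BWA (build mm10), unusable reads were dropped, Picard joined the replicates and MACS gave narrow peaks. MACS is named MACS2 in the submitters' processing notes beside SAMtools, deepTools and DESeq2. Versions, the peak threshold, any Tn5 shift, removal of blacklisted regions and the joining of sites between samples are not given in the sources used here. Each can move the number and the edges of sites, and calls on merged replicates hide how the replicates differed. The deposited table holds 1 pooled list of positions, with no count, signal or score. It has 0 columns of values per sample.

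Starts were taken as 0-based and ends as open, since neighbouring sites stood at least 1 bp apart, and printed positions count from 1. No test of a condition was possible, and shares are descriptions with exact binomial intervals. Starts came from GENCODE vM21, on the same assembly as mm10, and the main start from the best APPRIS level, then CCDS, transcript support level and length. A site near a start overlapped 1 kb either side by at least 1 bp. Islands were at least 200 bp, with GC over 0.5 and observed to expected CpG over 0.6, outside masked repeats (stricter: 500 bp, 0.55 and 0.65). Analyses used Python 3.11.15, NumPy 2.4.6, SciPy 1.17.1 and Matplotlib 3.10.9, and were tested on simulated data.

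All genes that matched the pattern were accounted for. Named in full were the immune, thymic and germ cell subunits with their paralogs, genes without a site, the 3 widest and 3 narrowest sites, shared start sites and genes with 3 or more body sites. Genes in the text beyond this rule were chosen after their values were seen. The members and lists were chosen with earlier results of these data known. Partner gene Paaf1 was not matched by symbol.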

Additional observations from a re-analysis of the deposited data

How the results depend on the processing

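Of 36 alternatives, 27 left the value inside its interval. The share of the 50 genes with a site near a start was 92% with windows of 500 bp, with main starts alone, with starts of coding transcripts alone, with the middle of the site in the window and with wide sites alone. It was 94% with 3 kb, where the second start of Psmb11 came into reach, 93.8% over whole symbols and 92.2% of 51 genes with RefSeq. The median width was 1294 bp under all 3 alternatives. Among those that moved a value, sites of at least the median width of 619 bp left 20% of genes with a body site. The stricter islands left 80% of genes with an island. The shares over all coding genes given above, 52.7% and 65.8%, belong to the main settings and cannot be set beside these values. Reading whole sites in place of the promoter window, which searches more bases, moved further motif shares. The CCAAT box came to 78.3%, against 75.6% of all coding genes with a site at the main start. The ETS core came to 54.3% against 31.1% and the SP and KLF core to 82.6% against 82.9%. The antioxidant response element came to 67.4% against 43.9% and the interferon response repeat to 47.8% against 29.5%. The gamma activated site came to 34.8% against 28.5% and the TATA box to 32.6% against 29.8%. Of sites with an island, 77.6% held the CCAAT box, 89.8% the SP and KLF core and 29.4% the TATA box. No paired analysis was possible because the pooled table holds nothing for single libraries, and for the same reason no replicate could be left out. Depth is unknown, so sites below the threshold of the peak calls may be missing from the list.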

Other observations

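The annotation names 4 processed pseudogenes after proteasome genes, Psmb5-ps, Psmb6-ps, Psmb6-ps2 and Psmb7-ps2. None of these 4 had a listed site within 1 kb. The share over all pseudogenes is not known here, so this count does not set them apart. The nearest site lay 2742 bp from Psmb5-ps, 2345 bp from Psmb6-ps and 7890 bp from Psmb7-ps2. For Psmb6-ps2 on chromosome 1 the distance was 1122553 bp.

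The 50 genes lay on 16 chromosomes, with 10 on chromosome 11 and 6 each on chromosomes 2 and 14.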
